A study of Mus musculus with 15 samples.

Results

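Single Tomato+ cells of mouse inguinal white fat were ranked by an immediate early score, the mean of the deposited log2 values of Fos, Egr1, Ier2 and Dusp1 in each cell. The 5 cells with the highest score are called strong and the 5 with the lowest are called weak, so that 10 of the 15 cells in the series entered the contrast and the other 5, called middle, did not. Because the cells were selected on measured values of these 4 genes, every difference below is a description of 10 chosen cells, without a p-value. The cells came from adult C57BL/6 mice of the genotype Prrx1-CreERT;Tomato, in which a tamoxifen-dependent Cre recombinase driven by Prrx1, a homeobox gene of the mesenchyme, turns on the Tomato reporter. All 15 cells share this genotype, tamoxifen at 2 mg per 30 g of body weight on each of 3 days, and tissue dissociation by type II collagenase for 1 h at 37 °C before sorting and picking. All cells carry 1 group label and no mouse is identified, so the number of mice is unknown and the cells count as 1 sample. No undigested cells were analysed here, so the score ranks cells against each other and not against intact tissue.

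Immediate early genes are transcribed within minutes of a stimulus from factors already present in the cell, and need no new protein. Serum response factor, cAMP response element binding protein and MAP kinases drive many of them. Their products include the Fos, Jun and Atf3 families, which pair through leucine zippers to form AP-1 complexes, and feedback proteins that switch the signal off again. Enzymatic digestion of tissue at body temperature is a known trigger of these genes and of heat shock genes in dissociated cells.

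The stretches upstream of 2 of the score genes and 3 of the genes that accompanied them are shown as examples, chosen because each holds a match to a motif searched. Of the 4 score genes only Fos and Dusp1 had a promoter window, so Egr1 and Ier2 were not searched. RefSeq promoter windows were matched by symbol, and the 250 bases before each start are given on build GRCm38.p6, 5′ to 3′ on the strand of the gene, with matches to the searched motifs in capitals. The windows lie at chr12:85473640-85473889 on the + strand for Fos, chr17:26508473-26508722 on the - strand for Dusp1, chr7:19310046-19310295 on the - strand for Fosb, chr8:84978749-84978998 on the - strand for Junb and chr7:28379229-28379478 on the - strand for Zfp36.
Fos: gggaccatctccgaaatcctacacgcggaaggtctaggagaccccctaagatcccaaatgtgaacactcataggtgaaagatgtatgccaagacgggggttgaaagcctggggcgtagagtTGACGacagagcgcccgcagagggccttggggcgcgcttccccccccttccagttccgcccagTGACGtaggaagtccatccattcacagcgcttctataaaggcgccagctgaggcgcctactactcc
Dusp1: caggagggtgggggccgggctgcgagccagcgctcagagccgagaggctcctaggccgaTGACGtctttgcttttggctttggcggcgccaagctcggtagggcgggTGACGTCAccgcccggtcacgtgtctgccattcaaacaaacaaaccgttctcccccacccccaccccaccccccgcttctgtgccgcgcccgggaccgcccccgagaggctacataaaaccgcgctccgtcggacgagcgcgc
Fosb: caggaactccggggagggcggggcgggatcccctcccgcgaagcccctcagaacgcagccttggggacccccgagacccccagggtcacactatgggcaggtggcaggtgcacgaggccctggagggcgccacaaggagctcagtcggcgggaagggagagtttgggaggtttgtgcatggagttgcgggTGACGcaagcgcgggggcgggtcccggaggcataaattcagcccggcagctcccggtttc
Junb: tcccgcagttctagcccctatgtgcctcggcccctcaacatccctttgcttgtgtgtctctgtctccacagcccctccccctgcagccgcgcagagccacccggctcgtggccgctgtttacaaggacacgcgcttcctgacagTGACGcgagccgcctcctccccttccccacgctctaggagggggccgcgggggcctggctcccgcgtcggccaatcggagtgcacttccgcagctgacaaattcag
Zfp36: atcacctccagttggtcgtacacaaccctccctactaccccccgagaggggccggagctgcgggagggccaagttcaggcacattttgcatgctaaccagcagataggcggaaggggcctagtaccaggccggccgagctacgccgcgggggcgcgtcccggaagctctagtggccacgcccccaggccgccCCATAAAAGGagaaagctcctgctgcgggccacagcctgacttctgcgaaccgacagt
The motifs searched on both strands were the cAMP response element TGACGTCA, its 5-base core TGACG, the AP-1 site TGAGTCA and the serum response element; every TGACGTCA also counts as a TGACG. Fos held TGACG at 129 to 125 and at 66 to 62 bases before the start, and Dusp1 held the full TGACGTCA at 143 to 136 bases and a further TGACG at 191 to 187 bases. Fosb held TGACG at 60 to 56 bases and Junb at 106 to 102 bases. The Zfp36 window held a serum response element at 58 to 49 bases. TGACG was present in 28.0% of the 5896 windows of genes tested below and in 17.8% of all 32851 windows. TGACGTCA was in 2.46% and 1.55% of the same windows, TGAGTCA in 3.14% and 4.46%, and the serum response element in 1.22% and 1.47%. Among the 38 windows of the 30 genes with a match out of 35 called higher in the strong cells below, 16 held TGACG, 42.1%, 3 held TGACGTCA, 7.89%, 2 held TGAGTCA, 5.26%, and 1 held the serum response element, 2.63%. These matches describe letters in a window and were not tied to binding.

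The values are log2(FPKM + 1), with FPKM the fragments per kilobase of transcript scaled to library size, and all cells share nearly the same distribution of values as deposited, so a difference reflects a shift of a gene within the ranking of values in its cell. Cells are listed from the highest score to the lowest, strong cells as 9, 15, 14, 10 and 2, middle cells as 8, 13, 12, 3 and 5, and weak cells as 1, 7, 4, 6 and 11. The score was 10.66, 10.63, 9.90, 9.55 and 9.42 in the strong cells. It was 9.0, 8.82, 8.40, 8.33 and 8.05 in the middle cells and 7.90, 7.77, 7.60, 7.35 and 4.92 in the weak cells. The step at the upper boundary, from 9.42 in cell 2 to 9.0 in cell 8, and that at the lower boundary, from 8.05 in cell 5 to 7.90 in cell 1, are both small beside the whole range. The score is therefore a gradient over the 15 cells, with cell 11 alone far below the others.

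Fos, the leucine zipper protein that partners with Jun, had 12.17, 12.27, 12.27, 11.81 and 11.49 in the strong cells and 10.17, 10.27, 5.87, 8.18 and 9.0 in the weak cells. Egr1, a zinc finger transcription factor, had 10.23, 9.52, 8.50, 8.60 and 8.87 against 6.70, 7.49, 8.33, 7.03 and 1.39. Dusp1, a phosphatase that switches off MAP kinases, had 10.06, 9.61, 8.61, 9.85 and 9.13 against 7.68, 8.06, 6.20, 7.47 and 7.40. These 3 genes did not overlap between the groups that they helped to choose. Ier2, a nuclear immediate early protein, had 10.19, 11.13, 10.24, 7.93 and 8.18 in the strong cells and 7.05, 5.29, 10.00, 6.70 and 1.88 in the weak cells, and weak cell 4 lay above strong cells 10 and 2. Weak cell 4 thus combined the lowest Fos of all cells with high Ier2, and weak cell 11 had Egr1 and Ier2 far below every other cell while its Fos was 9.0. The Spearman correlations between pairs of the 4 genes over the 15 cells, which share 1 group label, ran from 0.47 for Ier2 and Dusp1 to 0.76 for Fos and Dusp1.

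**Figure D1:**
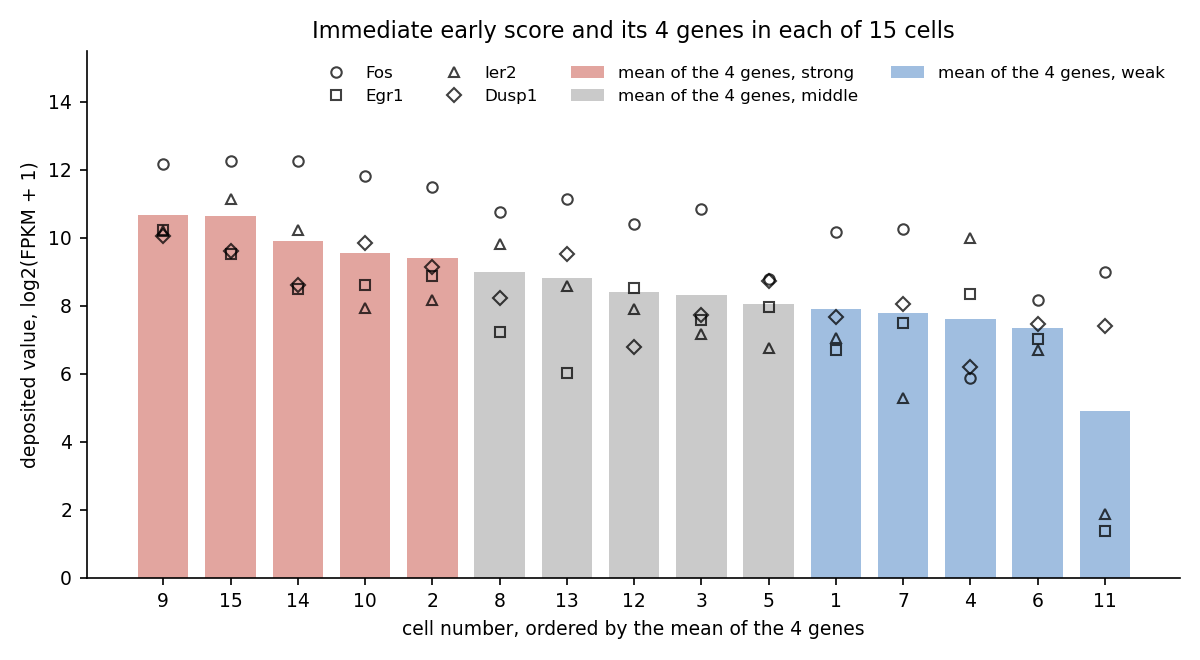
Bars give the immediate early score of each cell and symbols give its 4 genes, on the deposited log2(FPKM + 1) scale, with cells ordered by score on the horizontal axis. The score runs from 10.66 in cell 9 to 4.92 in cell 11 without a gap at either group boundary.

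Depth is unknown in this table, and the number of genes at a cell's lowest value stood in as a measure of how broadly the cell was detected. It ran from 1061 to 1877 in the strong cells, from 930 to 1483 in the middle cells and from 1059 to 1974 in the weak cells, and its Spearman correlation with the score was 0.0036 over the 15 cells. Among 12 housekeeping genes in the table the list mean was 6.66 ± 0.44 (SD, n = 5 cells) in the strong cells and 6.63 ± 0.42 in the weak cells. Neither measure separated the groups.

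Both groups carried the markers of the stromal compartment. All 14 stromal progenitor genes in the table passed the filter described below, and their mean was 8.05 ± 0.57 in the strong cells and 8.27 ± 0.49 in the weak cells. Col1a2, a fibrillar collagen chain, ran from 10.46 to 12.27 in the strong cells and from 10.26 to 12.56 in the weak cells. Pdgfra, the receptor that marks adipose progenitors, ran from 3.33 to 6.65 and from 2.61 to 6.88. Not every member was alike in the 2 groups. Of the 14 genes 1 differed by 1 or more, Fbln1 at 2.23, and 2 by -1 or less, Fstl1 at -2.49 and Pdgfrb at -1.65. Fstl1 was called lower in the strong cells by the rule given below. Of 10 immune markers only Csf1r and Cd14 were in the table, and their summed values ran from 0.00 to 6.39 in the strong cells and from 0.22 to 3.81 in the weak cells. Csf1r reached 6.39 in strong cell 2 and 3.81 in weak cell 1, and Cd14 was at 0.20 or less in all 10 cells. Of 8 endothelial markers only Tek and Esam were in the table, with summed values from 0.20 to 3.34 and from 0.00 to 5.33. The summed values of the 5 mural markers in the table ran from 3.03 to 11.87 in the strong cells and from 1.93 to 7.09 in the weak cells. The cells rich in mural markers, 13 and 5, with Higd1b at 10.68 and 10.98, were both middle cells and took no part in the contrast.

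Subtypes of stromal cell were not evenly spread. Dpp4, the surface peptidase of an interstitial progenitor type, had 0.45, 0.08, 0.00, 0.09 and 0.19 in the strong cells and 7.93, 6.87, 0.38, 0.86 and 1.62 in the weak cells, so that only weak cells 1 and 7 were high. Cd248, a transmembrane glycoprotein of the same progenitor list, had 1.67, 5.72, 1.89, 7.49 and 6.50 against 8.66, 8.53, 7.63, 6.55 and 7.94, with an overlap. Over the 11 genes of that list in the table the median difference of strong minus weak cells was -1.19, and 3 of the 11 were positive. Genes of a Cd142 (F3) stromal type leaned the other way. All 5 of them were positive with a median of 2.02. The lean was strongest in cell 2, which had the highest value of all 15 cells for 4 of the 5 genes. The list mean was 3.45, 4.67, 6.29, 4.53 and 9.24 in the strong cells and 2.02 to 4.14 in the weak cells, with an overlap. Middle cell 8 was at 8.83. Mgp, the matrix Gla protein, had 13.26, 10.12, 8.94, 8.15 and 10.49 in the strong cells and 7.59, 5.36, 3.20, 3.53 and 10.83 in the weak cells. Fmo2, a flavin monooxygenase of the same list, did not overlap, with 1.03, 1.41, 4.83, 2.35 and 8.70 against 0.29, 0.77, 0.50, 0.48 and 0.37. The part of these subtype differences in the results below was not tested.

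For the remaining genes the mean of the strong cells was compared with that of the weak cells wherever a gene reached 1 FPKM in at least 5 of the 15 cells, which left 5836 genes. A gene was called when the 2 sets of 5 values did not overlap and their means differed by at least 1. By this rule 35 genes were higher in the strong cells, 0.600% of those compared, and 25 were lower, 0.428%. Over all 5836 genes the median difference was -0.04, 48.6% were positive and the range from the 5th to the 95th percentile was -2.28 to 2.37, so large differences of means were common among these few cells. A difference of 1 or more was found in 23.3% of the genes in each direction. Removing any 1 of the 10 cells left 49 to 73 genes higher and 44 to 63 lower, since fewer cells overlap less easily, and the 73 came from leaving out cell 2. Both counts grew by more than 1.5 times for every cell left out except cell 15, where 49 genes were higher.

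The genes higher in the strong cells were rich in stress genes. Of the 135 genes on the 12 stress lists that passed the filter 12 were called higher, 8.89% beside the 0.600% of all genes, and 0 were called lower beside 0.428%. The 12 were Fosb, Jun, Junb, Atf3, Maff, Trib1, Ier5, Zfp36, Ccnl1, Sqstm1, Hsp90aa1 and Mt2. The 49 genes on the 6 cytokine and signalling lists gave 0 calls in either direction, which says little beside shares of 0.600% and 0.428% over all genes. The 324 on the 9 metabolic lists gave 2 higher, 0.617%, and 1 lower, 0.309%, near the shares over all genes. Over all list genes in the table, whether or not they passed, the median difference was 1.10 for the 154 stress genes, 0.64 for the 67 cytokine genes and -0.07 for the 347 metabolic genes, beside -0.01 for all 8442 genes. The comparison was also restricted to the 1360 genes at 1 FPKM or more in all 10 cells, a limit chosen after the values were seen. This left 13 genes higher, 0.956%, and 4 lower, 0.294%. Of the 67 stress genes among the 1360, 9 were called higher, 13.4%, and 0 lower. With a share of 0.294% over all genes, a count of 0 in 67 genes says little. The lists were drawn up with earlier results of these cells known and include standard dissociation genes, so these counts describe the lists and are not independent evidence for them.

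**Figure D2:**
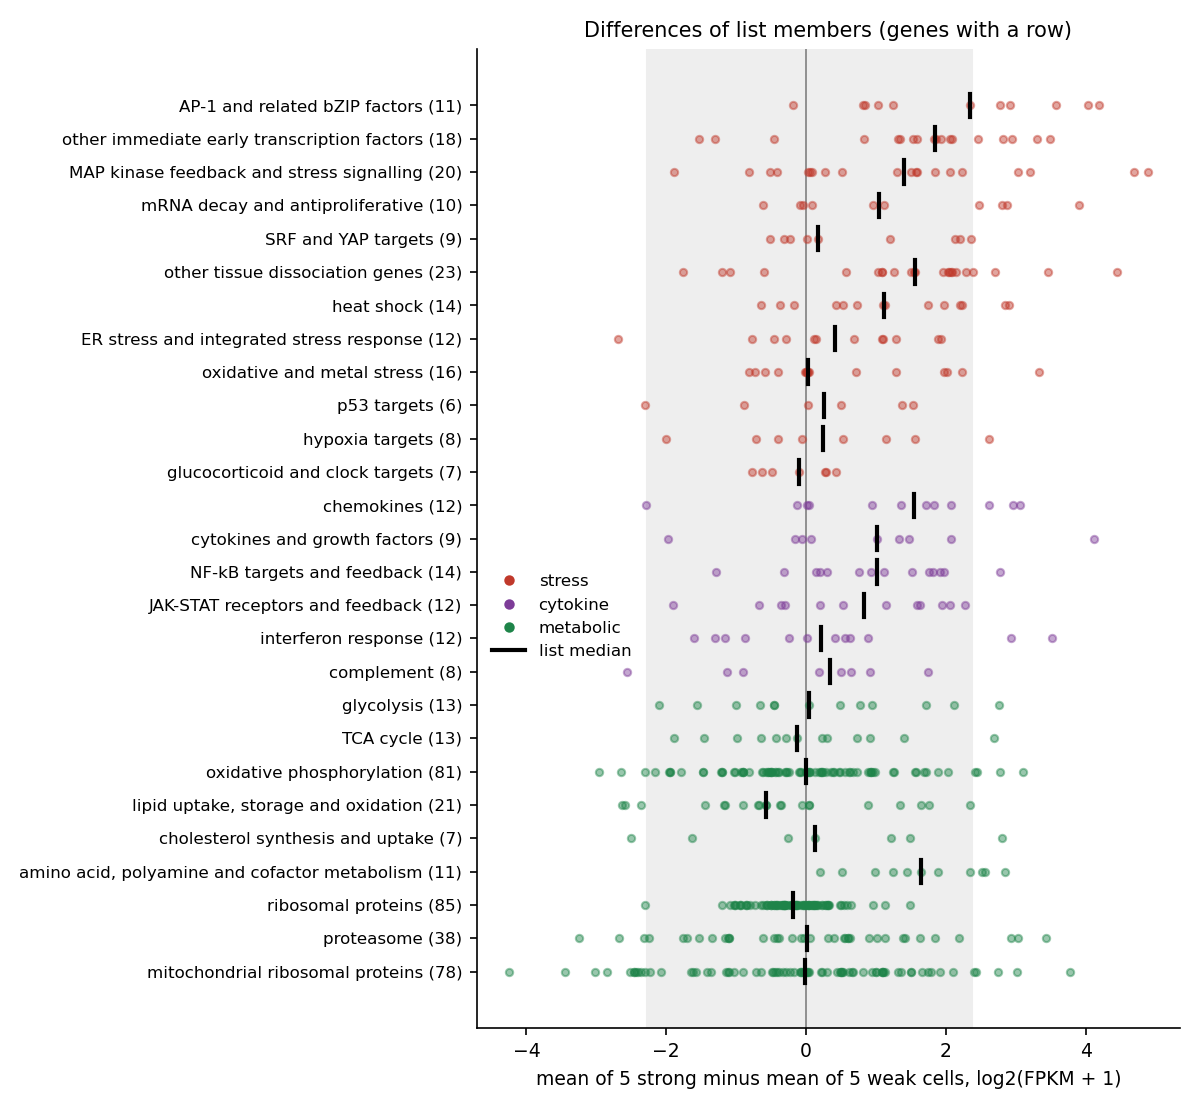
Each point is a gene with its mean in the 5 strong cells minus its mean in the 5 weak cells on the log2(FPKM + 1) scale, 1 row per list, with the number of genes in parentheses, a black bar for the list median and a grey band from the 5th to the 95th percentile of all genes compared. The AP-1 list has the rightmost median, 2.35, while the lists of oxidative phosphorylation, TCA cycle and ribosomal proteins are centred near 0.

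The AP-1 and related leucine zipper factors stood highest. Of 13 genes on the list 11 were in the table and 10 of these had positive differences, with a median of 2.35. Of the 10 that passed the filter 5 were called, with a median difference of 2.56, which ran from 1.96 to 2.94 when any 1 cell was left out.

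Jun, which forms AP-1 dimers with Fos, lies at chr4:95049034-95052222 in the GENCODE M21 annotation of GRCm38. It had 9.83, 8.91, 9.09, 7.45 and 8.21 in the strong cells, 7.80, 8.31, 7.64, 6.82 and 6.51 in the middle cells and 5.54, 6.67, 6.37, 5.14 and 5.94 in the weak cells. Every strong cell lay above every weak cell, and the means were 8.70 ± 0.90 and 5.93 ± 0.62, a difference of 2.77. Its Spearman correlation with the score, 0.91 over 15 cells, was the highest of all genes tested.

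Junb, a Jun relative, had 9.78, 7.86, 9.32, 8.47 and 7.19 in the strong cells and 3.43, 5.86, 5.84, 5.76 and 3.84 in the weak cells. All strong cells lay above all weak cells, with means of 8.53 ± 1.05 and 4.95 ± 1.21. Fosb, a Fos relative, had 9.51, 8.52, 7.31, 8.56 and 6.55 against 5.68, 4.68, 3.01, 5.41 and 1.53. Its means were 8.09 ± 1.16 and 4.06 ± 1.76, and the middle cells, with a mean of 6.77, lay between them. Atf3, a stress-induced repressor of the ATF family, had 7.68, 6.80, 7.28, 6.13 and 9.22 against 2.85, 2.20, 5.69, 4.01 and 1.43. The difference for Atf3 was 4.19, the largest of the list, and its highest weak cell was cell 4, the weak cell with high Ier2. Maff, a small Maf protein, was called at low values, with 7.89, 0.95, 0.88, 3.76 and 2.89 in the strong cells and 0.58 or less in the weak cells, so that 3 strong cells and 0 weak cells reached 1 FPKM.

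The other members did not meet the rule. Fosl1 had 3.54, 3.18, 4.61, 2.30 and 0.21 in the strong cells and 0.66 or less in the weak cells, with cell 2 alone overlapping. Fosl2, Jund and Mafk differed by 1.03, 0.85 and 0.81 with wide overlap, and Mafg, at -0.19, was the only member in the table with a negative difference. Jdp2, a leucine zipper protein that represses AP-1 and was on no list, was among the genes lower in the strong cells. It had 0.00, 0.27, 0.35, 0.20 and 0.66 in the strong cells and 3.28, 5.37, 2.72, 1.57 and 3.31 in the weak cells. All weak cells exceeded 1 FPKM for Jdp2 and no strong cell did.

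Other immediate early transcription factors were mostly higher on average but overlapped. Of the 18 with values 15 had positive differences, 14 of 1 or more, with a median of 1.84, and 0 of the 16 that passed were called. Cebpb, a factor of adipocyte differentiation and inflammation, had 6.58, 4.61, 1.68, 6.74 and 5.49 against 1.14, 0.89, 3.32, 2.91 and 0.33, and strong cell 14 lay below 2 weak cells. Hes1, a Notch target, had 9.20, 8.13, 5.84, 6.63 and 5.91 against 1.94, 1.12, 4.41, 6.52 and 4.32, with weak cell 6 above 2 strong cells. Id2 and Bhlhe40, both helix-loop-helix proteins, differed by 2.94 and 2.81, and Bhlhe40 reached 7.98 in cell 9 and 0.21 in cell 2. Klf9 and Klf10 had negative differences of -1.53 and -1.30, and Klf2 was at -0.46.

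Feedback and stress signalling genes leaned the same way. Of the 20 that had values 16 were positive, with a median of 1.40, and 2 of the 15 that passed were called, Ier5 and Trib1. Ier5, an immediate early regulator of heat shock factor, had 6.23, 5.42, 2.49, 4.02 and 3.11 in the strong cells and 0.65, 1.14, 1.75, 1.38 and 1.21 in the weak cells. Trib1, a pseudokinase that promotes protein degradation, had 1.09, 1.89, 5.40, 2.52 and 1.28 against 0.70, 0.31, 0.74, 0.75 and 0.44, both sets low apart from cell 14. Gadd45b, a stress sensor that acts on MAP kinase kinases, had 10.08, 9.78, 6.19, 5.03 and 8.01 in the strong cells and 5.65, 1.81, 2.61, 2.84 and 1.76 in the weak cells. Its means of 7.82 ± 2.20 and 2.93 ± 1.59 differed by 4.88, the largest of this list, and only weak cell 1 overlapped with strong cell 10. Ier3, a survival gene, had 11.49, 9.09, 7.39, 5.10 and 6.17 against 2.58, 1.44, 7.18, 2.86 and 1.73, with cell 4 again the exception among the weak cells. Spry1, an inhibitor of receptor tyrosine kinase signalling, was at -1.89.

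Genes that shorten the life of mRNA or slow growth included Zfp36, which encodes a protein that binds AU-rich sequences and speeds decay of cytokine and immediate early messages. Zfp36 had 10.60, 10.44, 10.23, 7.96 and 8.22 in the strong cells and 7.13, 6.86, 7.13, 7.50 and 4.49 in the weak cells. The groups did not overlap, the means were 9.49 ± 1.29 and 6.62 ± 1.22, and the 3 cells with the highest score were also the 3 with the highest Zfp36. Its relatives Zfp36l1 and Zfp36l2 differed by 0.09 and 0.95. Btg2, an antiproliferative p53 and stress target, had 8.57, 9.43, 8.40, 8.09 and 5.08 against 1.86, 6.90, 4.03, 6.05 and 1.24, with cell 2 below 2 weak cells. The list's 9 genes that passed had a median difference of 1.12, a value that rested on single cells, since it was 2.27 without cell 2, 1.99 without cell 1, 0.62 without cell 15 and 0.45 without cell 7.

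The genes of other known dissociation responses had 18 positive differences among the 21 that passed, 17 of 1 or more, with a median of 1.55. Ccnl1, a cyclin that acts in splicing, had 7.97, 9.12, 7.53, 8.20 and 6.57 in the strong cells and 2.51, 4.09, 2.89, 3.46 and 4.21 in the weak cells. The lowest strong cell stood well above the highest weak cell, and in the middle cells it ran from 2.34 to 8.45. Sqstm1, the autophagy receptor p62, had 11.17, 9.59, 9.29, 9.53 and 9.39 against 9.25, 6.94, 9.02, 7.97 and 8.28, so that cells 14 and 1 nearly met. Targets of serum response factor and YAP, which include actin genes, had a median of 0.16 over the 9 in the table, and Actb and Actg1 differed by -0.32 and 0.16.

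Heat shock genes showed a mixed picture. Of 14 genes 11 had positive differences, with a median of 1.12, and 1 was called. Hsp90aa1, the inducible cytosolic chaperone, had 8.87, 10.14, 8.17, 10.12 and 7.89 in the strong cells and 7.83, 6.84, 5.76, 6.86 and 6.77 in the weak cells. Strong cell 2 and weak cell 1 nearly met, while the means were 9.04 ± 1.06 and 6.81 ± 0.73. Hspa1b, the classical inducible Hsp70, had 1.42, 7.17, 6.03, 4.81 and 5.53 against 1.88, 1.65, 2.40, 4.03 and 0.78, and cell 9, with the highest score, was among the low ones. Hspa1a had 0.64, 0.58, 6.59, 3.91 and 5.35 against 0.21, 1.06, 1.99, 3.71 and 0.26. Cell 15, the highest of the strong cells for Hspa1b, lay below 3 weak cells here. Middle cell 8 was the highest of all 15 cells for both genes. Reads of the near-identical copies Hspa1a and Hspa1b may have been split between them. Dnajb4 and Dnaja1, co-chaperones of Hsp70, differed by 2.90 and 2.19 with overlap. The mitochondrial chaperones Hspd1 and Hspe1 were at -0.65 and -0.17.

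The remaining stress lists had no more than 1 called gene each. Mt2, a metal-binding metallothionein, had 12.09, 13.26, 12.72, 12.17 and 13.69 in the strong cells and 10.23, 11.49, 11.75, 8.07 and 5.77 in the weak cells. It had the highest strong mean of the 35 genes called higher, 12.79, with a value at the top of the scale in cell 2, and the middle cells split into 3 at 11.49 or more and cells 13 and 5 at 5.44 and 5.90. The 16 oxidative and metal stress genes with values had a median of 0.02, and 5 of them differed by 1 or more and 0 by -1 or less. Besides Mt2 these were Txnrd1 at 2.23, Sod2 at 2.01, Hmox1 at 1.98 and Sod1 at 1.28, enzymes of redox defence and haem breakdown whose strong and weak cells overlapped. Gpx1, Gpx4, Prdx1 and Txn1, which act on peroxides and thiols, differed by -0.01, 0.03, 0.04 and 0.01. Endoplasmic reticulum stress genes had a median of 0.41, and Ddit3, the CHOP factor of that response, had 7.32, 3.60, 1.28, 5.18 and 0.60 against 7.86, 5.98, 6.59, 4.99 and 6.04, a difference of -2.70 with overlap. The 6 p53 targets in the table had a median of 0.26, with Cdkn1a at 1.37 and Bax, a promoter of apoptosis, at -2.31. The 8 hypoxia targets had a median of 0.23 and the 7 glucocorticoid and clock targets one of -0.10.

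**Figure D3:**
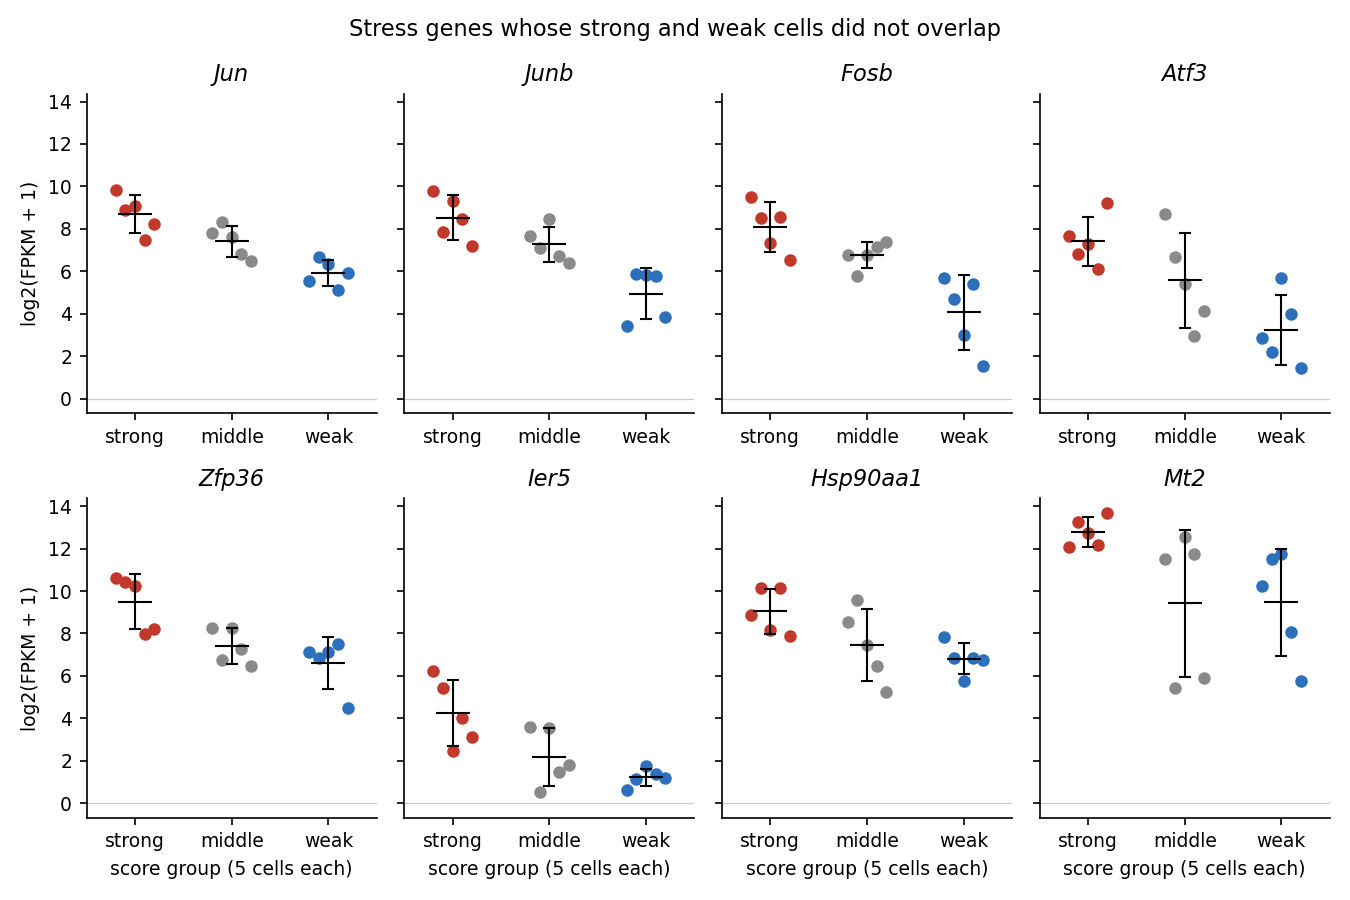
Points are single cells on the log2(FPKM + 1) scale in the strong, middle and weak groups, with the mean and SD of 5 cells in black, for 8 stress genes whose strong and weak cells did not overlap. Jun separates the groups with the least spread, and Mt2 is near the top of the scale in all 5 strong cells but ranges from 5.44 to 12.56 in the middle cells.

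Cytokine and chemokine genes were higher on average in the strong cells, and none met the rule. Of the 12 chemokines with values 10 had positive differences, 7 of 1 or more, with a median of 1.54 that dropped to 0.98 without cell 14 and to 0.99 without cell 1. Ccl2, which attracts monocytes, had 13.69, 10.61, 3.70, 6.49 and 4.29 in the strong cells and 6.15, 4.30, 3.52, 6.93 and 2.60 in the weak cells. The 2 cells with the highest score held its highest values, with cell 9 at the top of the scale, while strong cells 14, 10 and 2 lay within the range of the weak cells. Cxcl2, a neutrophil attractant, had 2.07, 7.02, 5.55, 5.27 and 0.17 against 0.00, 1.81, 0.00, 0.88 and 2.57. Cxcl12, which retains progenitors and lymphocytes, had 7.74, 8.60, 9.04, 8.81 and 7.43 against 2.58, 6.91, 3.00, 9.22 and 6.82, so that every strong cell was above 7 and the weak cells were scattered. Cxcl1 and Ccl7 differed by 1.71 and 1.82, and Ccl8 was at -2.30 with 12.27 in weak cell 7.

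Il6, the cytokine of the acute phase, had the largest difference of the cytokine lists, 4.11, and it came from part of the strong cells. It had 9.80, 8.50, 1.61, 5.02 and 7.64 in the strong cells, 1.74, 0.37, 1.76, 2.26 and 3.88 in the middle cells and 2.90, 2.08, 2.92, 3.68 and 0.42 in the weak cells. Of the 15 cells 4 were above 5, all of them strong, and strong cell 14 lay below 4 of the 5 weak cells. Its Spearman correlation with the score over all 15 cells was 0.37, and the middle cells, with a mean of 2.01, were no higher than the weak cells, with 2.40. Has1, a hyaluronan synthase, had 10.63 in cell 9 and from 3.75 to 7.35 in the other strong cells against 6.24, 7.93, 2.45, 3.07 and 1.21. Csf1, the macrophage growth factor, had 1.43, 6.68, 1.60, 5.68 and 3.92 against 7.09, 6.15, 6.82, 7.64 and 1.47, a difference of -1.97. The list held 21 genes, of which 9 were in the table, with a median of 1.02.

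Targets and inhibitors of NF-kB leaned to the strong cells in 12 of the 14 genes in the table. The median over the 10 that passed was 1.22, and it was 0.65 without cell 9. Nfkbiz, a nuclear IkB protein that is needed for Il6 transcription, had 6.85, 6.91, 6.24, 4.25 and 3.14 in the strong cells and 4.28, 3.77, 2.16, 2.34 and 0.99 in the weak cells. Its Spearman correlation with the score was 0.74, and weak cells 1 and 7 overlapped with strong cells 10 and 2. In the middle cells Nfkbiz was 4.47 to 6.79, as high as in the strong cells, while Il6 there was low. Nfkbia, the IkB alpha inhibitor, had 9.75, 10.40, 7.52, 8.42 and 9.37 against 7.97, 8.86, 6.48, 6.21 and 6.89. In the JAK-STAT list 8 of the 12 genes in the table were positive, with a median of 0.83, and Socs2 was at -1.91. The list mean was 2.74 in the strong, 1.25 in the middle and 2.07 in the weak cells, and strong and weak cells overlapped. Stat3, which carries the Il6 signal, had 7.36, 2.55, 3.62, 5.74 and 4.67 against 1.20, 3.52, 3.30, 3.21 and 1.32, and its feedback inhibitor Socs3 differed by 1.58. Irf1, an interferon regulatory factor, had 8.69, 0.85, 6.71, 6.57 and 2.95 against 1.99, 1.23, 1.84, 2.59 and 0.57, with cell 15 as low as the weak cells. The 12 interferon genes with values, Irf1 included, had a median of 0.21, with Psmb9 at 2.93 and Bst2 at -1.30.

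Cell 9, which had the highest score, also held many of the highest values. Among the 67 cytokine and signalling genes in the table it had the highest value of all 15 cells for 15, 22.4%, beside 6.37% over all genes with 1 highest cell. Of these 15, 7 were among the 12 JAK-STAT genes and 3 among the 14 NF-kB genes. Another 2 were among the 9 cytokines, 2 among the 12 interferon genes, 1 among the 12 chemokines and 0 among the 8 complement genes. Among the 153 stress genes cell 9 was highest for 32, 20.9%, and among the 339 metabolic genes for 12, 3.54%. Cell 15, second by score, was highest for 31 of the stress genes, 20.3%, for 8 of the cytokine genes, 11.9%, and for 9.81% over all genes. Middle cell 8 also held 8 of the cytokine maxima, so the cytokine genes did not follow the score cell by cell. Complement genes, which fibroblasts of fat express at high levels, did not follow, with a median of 0.34 over 8 genes, C3 at -1.13 and C4b at -2.57.

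**Figure D4:**
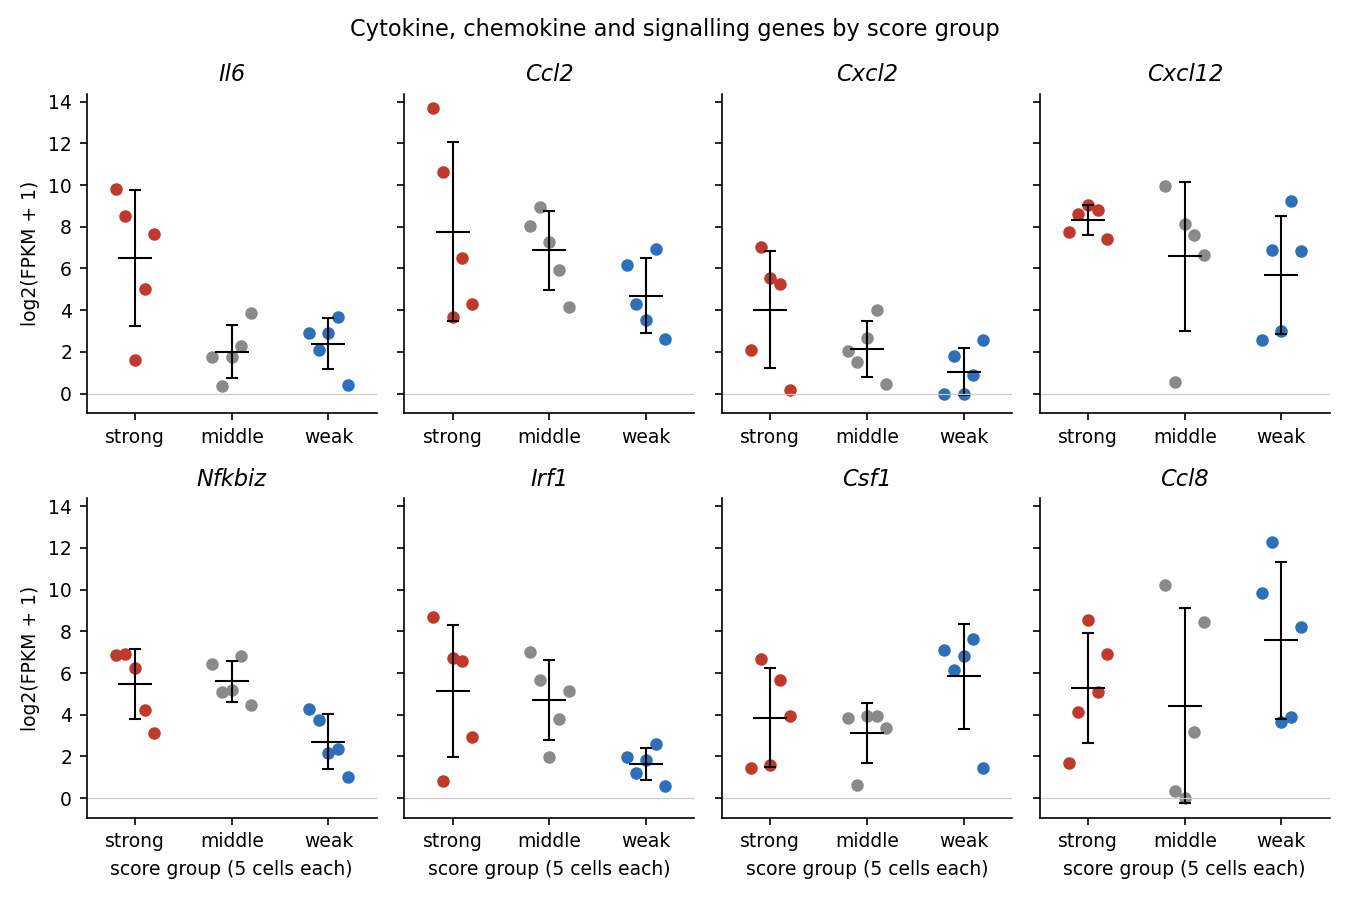
Points are single cells on the log2(FPKM + 1) scale in the 3 score groups, with the mean and SD of 5 cells in black, for 6 genes with large positive and 2 with negative differences. Il6 is above 5 in 4 strong cells and in none of the middle or weak cells, while each of the 8 genes overlaps between strong and weak cells.

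The lists of energy metabolism did not go with the score as a whole. Oxidative phosphorylation genes, including Ndufaf assembly factors, had a median difference of -0.08 over the 79 genes that passed, with 37 positive and 0 called. TCA cycle genes had one of -0.12 over 13 genes. Cox20, an assembly factor of cytochrome oxidase, and Dlst, a TCA cycle gene, were on neither list. Both were called lower in the strong cells, at -5.49 and -2.21. Glycolysis genes had a median of 0.04 over 13 genes, and their members pulled apart. Hk2, the inducible hexokinase, had 7.72, 1.47, 3.13, 4.50 and 2.76 in the strong cells and 2.80, 2.81, 0.06, 0.09 and 0.00 in the weak cells. Ldha, the lactate dehydrogenase subunit, had 8.99, 7.45, 7.48, 6.85 and 5.74 against 6.07, 6.47, 6.19, 2.39 and 4.79, with only cell 2 inside the weak range. Pgk1 and Pgam1, which act lower in the pathway, were at -2.11 and -1.56, and Gapdh at 0.04. Ribosomal protein genes had a median of -0.19 over 85 genes, proteasome genes 0.01 over 38 and mitochondrial ribosomal genes -0.02 over 78, with Psmd3 and Mrps2 called higher. The lowest strong and highest weak cells were 0.35 and 0.20 for Psmd3 and 1.67 and 0.42 for Mrps2.

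Amino acid, polyamine and cofactor genes were the metabolic list that leaned most to the strong cells. All 11 genes in the table had positive differences, 8 of 1 or more, with a median of 1.64, and their list mean was 2.94 to 4.56 in the strong cells and 1.67 to 2.51 in the weak cells, without overlap. Among the 38 lists 5 had list means that did not overlap, all higher in the strong cells, and the other 4 were the AP-1 factors, the other immediate early factors, the feedback genes and the other dissociation genes. No single gene of this list met the rule. Odc1, the first enzyme of polyamine synthesis and a Myc target, had 7.28, 0.45, 0.66, 3.30 and 2.61 against 0.47, 0.00, 0.00, 0.00 and 1.28. Phgdh, which starts serine synthesis, had 3.05, 5.65, 5.02, 0.41 and 3.63 against 0.49, 0.16, 4.05, 0.00 and 0.28, with cells 10 and 4 as exceptions. Got1, the cytosolic aspartate aminotransferase, had 6.45, 8.83, 5.06, 3.21 and 0.57 against 0.67, 5.60, 1.62, 1.37 and 0.65. Slc3a2, the heavy chain of amino acid exchangers, differed by 2.34.

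In sterol metabolism Hmgcs1, which makes the precursor of mevalonate, had a Spearman correlation of 0.83 with the score, the fifth highest of all genes. It had 3.54, 6.00, 0.32, 2.27 and 2.60 in the strong cells and 0.32, 0.24, 0.00, 0.18 and 0.00 in the weak cells, so that 4 strong cells and 0 weak cells reached 1 FPKM and cell 14 was as low as the weak cells. Insig1, which restrains the pathway, was at -2.51. Over 7 genes the median was 0.12, and the pathway as a whole did not share the pattern of Hmgcs1.

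Lipid genes leaned to the weak cells, with 14 of 21 not positive and a median of -0.57. Their list mean was 2.61 in the strong cells, 3.40 in the middle cells and 2.97 in the weak cells. The strong and weak cells overlapped, and weak cell 11 had the lowest list mean of all 15 cells, 1.73. Over the 16 that passed the median was -0.63 and depended on single cells, with -0.98 without cell 11, -0.23 without cell 4, -0.31 without cell 7, -0.36 without cell 1, -0.39 without cell 14 and -0.42 without cell 6. Fabp5, a fatty acid binding protein, was called lower with 0.00, 0.23, 0.00, 0.17 and 0.26 in the strong cells and 1.23, 4.35, 0.73, 6.85 and 0.48 in the weak cells. Only 3 of the weak cells reached 1 FPKM, and among the middle cells 3 were at 4.54 or more and 2 at 0.15 or less, so its call rests partly on very low values. Acadm, which oxidizes medium-chain fatty acids, had 1.06, 6.89, 5.64, 2.23 and 6.05 against 6.37, 7.32, 7.69, 8.56 and 5.07. Cd36, the fatty acid transporter, had 0.00, 6.63, 1.89, 0.00 and 0.98 against 1.55, 1.40, 9.22, 8.20 and 0.90, and Fabp4, the adipocyte form, had 13.69 in weak cell 4 and 1.24 in strong cell 9. Cpt1a, which admits fatty acids to mitochondria, went the other way, with 4.15, 5.12, 3.74, 1.93 and 2.26 against 4.79, 0.07, 0.23, 0.12 and 0.24.

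**Figure D5:**
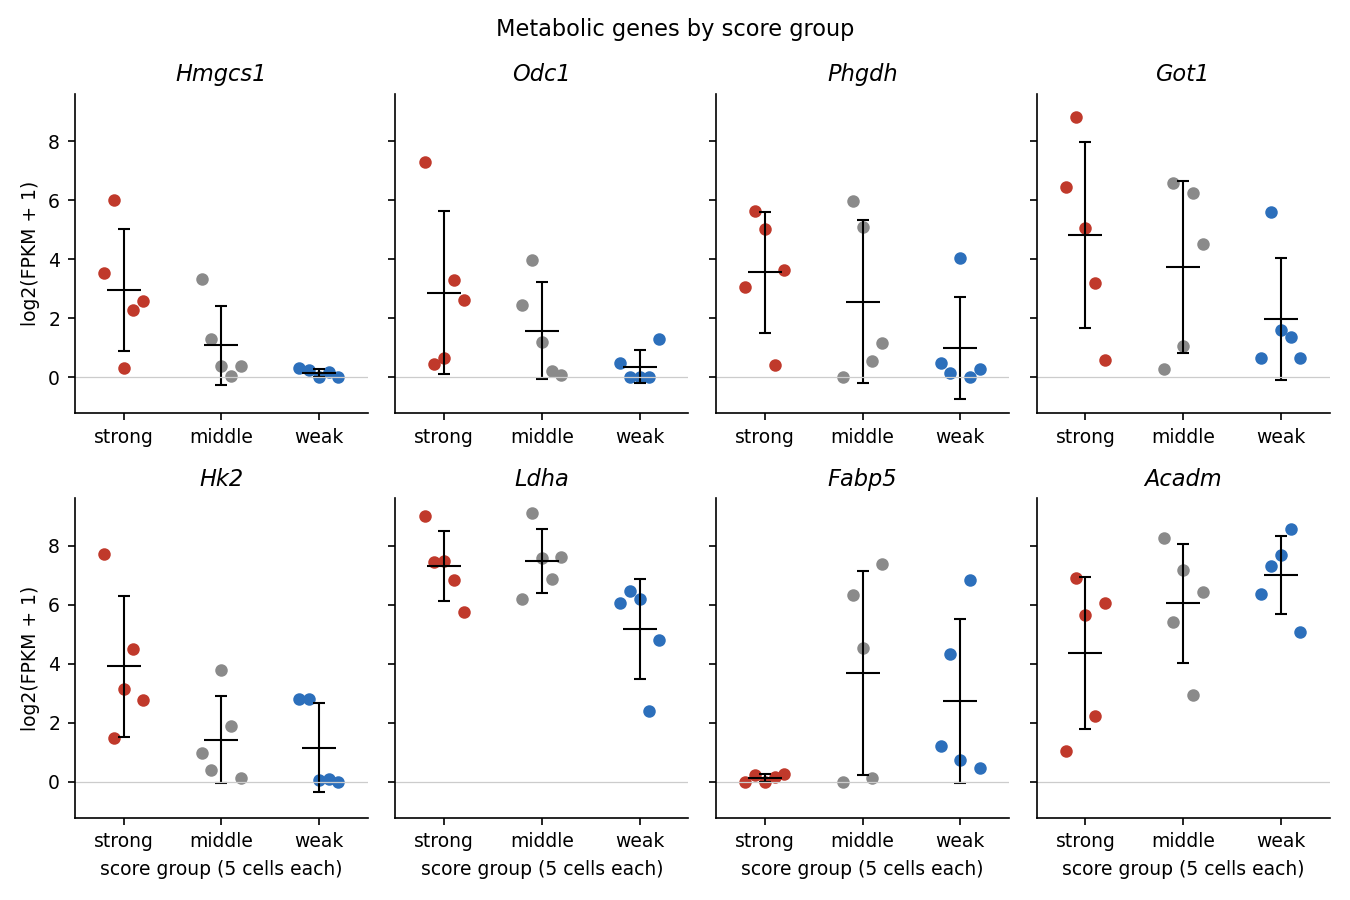
Points are single cells on the log2(FPKM + 1) scale in the 3 score groups, with the mean and SD of 5 cells in black, for 8 metabolic genes. Of these, Fabp5 alone does not overlap between strong and weak cells, and Hmgcs1 reaches 1 FPKM in 4 strong cells and in none of the weak cells.

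Outside the stress lists the called genes were not tested for a shared theme. Among those higher in the strong cells, Fubp3, a nucleic acid binding protein, had 4.70, 5.96, 6.06, 3.61 and 6.06 against 2.81 in weak cell 11 and 0.23 or less in the other weak cells. Smpd1, the acid sphingomyelinase, had 0.59, 5.85, 5.32, 6.59 and 6.28 against 0.50 or less, and Nip7, a ribosome assembly factor, had 5.69, 5.02, 3.97, 5.70 and 5.21 against 3.49 in cell 6 and 0.52 or less in the others. Ube2d3, a ubiquitin-conjugating enzyme, differed by only 1.40 but had little spread, with 6.72 to 8.35 in the strong cells, 6.70 to 6.87 in the middle cells and 5.33 to 6.20 in the weak cells. Phf10, Paf1, Kdm1a and Srek1, which act in chromatin, transcription and splicing, differed by 4.0, 3.70, 3.38 and 3.54. Tubb2a, at 2.81, has near-identical tubulin relatives with which its reads may have been split, and is uncertain. Of the 35 genes 15 had no weak cell at 1 FPKM, so part of the calls is between detected and undetected values. Only 24 of the 35 had all 5 strong cells at 1 FPKM or more.

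Among the genes lower in the strong cells Gngt2, a G protein gamma subunit, had 1.34, 3.88, 2.25, 4.61 and 0.97 in the strong cells and 7.98, 7.77, 9.30, 8.81 and 8.04 in the weak cells. Cox20, an assembly factor of cytochrome oxidase, had 2.18, 5.99, 1.48, 5.01 and 0.87 against 7.68, 8.85, 9.51, 8.80 and 8.13. These differences of -5.77 and -5.49 were larger than those of any gene called higher, and the middle cells ran from 0.00 to 8.58 for Gngt2 and from 0.55 to 9.50 for Cox20. Fstl1, a secreted glycoprotein of mesenchymal cells, had 8.06, 8.51, 6.39, 9.04 and 7.69 against 10.68, 10.11, 9.80 and 10.53 in weak cells 1, 7, 4 and 6 and a still higher value in cell 11, with middle cells from 7.42 to 8.88. S100a11, a calcium-binding protein, had 10.83, 10.77, 10.96, 10.79 and 11.30 against 13.69, 13.26, 12.47, 12.09 and 12.47. Lamc1, a laminin chain, had 4.45, 6.26, 5.91, 5.80 and 4.15 against 8.62, 7.92, 6.35, 7.53 and 7.49. These 3 genes and Atp6v1e1, a subunit of the vacuolar proton pump with a difference of -3.14, were the only lower genes at 1 FPKM or more in all 10 cells. Irak1, a kinase downstream of interleukin-1 and Toll-like receptors, had 0.72 or less in the strong cells and 3.47 to 5.82 in the weak cells. Ehmt1 and Srsf9, which act in histone methylation and splicing, differed by -3.70 and -4.22. For Ehmt1 the highest strong cell, 0.84, and the lowest weak cell, 0.89, nearly met. Of the 25 genes 13 had no strong cell at 1 FPKM, and 17 had all 5 weak cells at 1 FPKM or more. Eif2s3x, at -2.97, has a near-identical copy on the other sex chromosome and is uncertain.

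Over all 15 cells the genes most like the score by Spearman correlation were Jun at 0.91, Junb at 0.89, Ube2d3 and Fosb at 0.85, Hmgcs1 at 0.83, and Maff, Gadd45b, Atf3 and Nip7 at 0.81, followed by Zfp36 at 0.78. The lowest were Dmxl2, Hebp2 and Fstl1 at -0.78, Srsf9 at -0.77 and Eif2s3x at -0.76. A correlation of at least 0.5 was found for 6 of the 10 AP-1 genes, 4 of the 9 mRNA decay genes, 3 of the 10 NF-kB genes and 0 of the 6 cytokines that passed, beside 232 of the 5836 genes, 3.98%. The 15 points share 1 group label, a protocol and the normalization, and are given as a description. The number of mice is unknown, and the labels do not say how many preparations the cells came from.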

How the data were processed

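RNA of 15 single cells was made into libraries with a 3′ SMART-Seq v4 kit and Nextera XT, per the labels' protocols. TopHat2, Cufflinks and GRCm38 are named in the submitters' processing notes, without versions; settings were not given in the sources used here. It was the authors who deposited 1 table of 8446 rows, 8441 distinct genes, as FPKM; its deposited values end at 13.69 and were read as log2(FPKM + 1), a base inferred from the values. The sorted values of all cells were the same to 0.0354 above 0.2, and 4369 rows reached 1 FPKM in each cell, so the deposited log2 values have the form that quantile normalization gives, and no further logarithm was taken. FPKM divides by length although a 3′ kit does not give reads in proportion to it, and depth is unknown. Symbols were taken by identifier, with 8431 rows matched.

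Cells were tied to columns by the number in their titles. The score, the groups, the call rule (no overlap between 5 and 5 cells, a difference of at least 1, and 1 FPKM in at least 5 cells) and Spearman correlations were computed with Python 3.11.15, numpy 2.4.6, pandas 2.3.3 and scipy 1.17.1. No test was run: cells are not replicates, and the labels name no animal. The pipeline was tested on simulated data. Members and the 38 lists were chosen with earlier results of these data known. Named genes were the score genes, called list genes, up to 4 members of each list with the largest differences, the 20 largest called differences in each direction, the 10 highest and 5 lowest correlations, and marker genes; the other list members and called genes named were chosen after their values were seen. Alternatives varied the cells left out, score, group size, pseudocount, scale, filter and size of difference; 1 filter was added after the data were seen.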

Additional observations from a re-analysis of the deposited data

Results flagged for a closer look

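Dixon's criterion was applied to 58 sets of 5 cells. These were the strong and the weak cells for the score, the number of genes at the lowest value and the means of 27 lists. In 4 sets a cell stood apart from the other 4. Chance alone meets the criterion in about 1 in 20 sets of 5 values drawn at random. That rate does not apply to the score, whose ends chose the cells, and may not hold for lists that go with it. The score of weak cell 11 was 4.92, with the nearest weak cell at 7.35. The mean of the AP-1 list was 1.47 in the same cell, with the nearest at 2.66. The ribosomal protein mean was 8.97 in strong cell 10, with the nearest strong cell at 8.05. The proteasome mean was 3.99 in weak cell 6, with the nearest weak cell at 5.16.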

How the results depend on the processing

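No called gene changed sign under any alternative. Where an alternative used only cells of the main groups this was fixed in advance, since called genes do not overlap between them. The sign could have changed only where other cells entered. These were the scores without 1 of the genes, 7 against 7 cells, and the setting without the 3 cells of lowest breadth. Leaving out 1 of the 10 cells gave 49 to 73 genes higher and 44 to 63 lower, since fewer cells overlap less easily, and a median of 0.45 to 2.27 for mRNA decay genes. With 4 against 4 cells 104 genes were higher and 98 lower and the mRNA decay median was 2.98. With 7 against 7 cells 7 were higher, 3 of them AP-1 genes, and 4 lower, and the medians were 0.93 for feedback genes and 0.66 for chemokines. A score without Egr1 kept 13 of the 35 higher and 10 of the 25 lower genes, with chemokines at 0.53 and TCA cycle genes at 0.80. Without the 3 cells of lowest breadth 51 genes were higher and 35 lower, 16 and 5 of them called before, and heat shock genes had 0.53 and chemokines 0.46. A pseudocount of 0.1 gave 2.69 for amino acid genes, and one of 5 gave 1.46 for AP-1 genes. Requiring 1 FPKM in 8 cells left 13 genes lower and a cholesterol median of -2.51, and requiring it in all 10 cells, added later, left 13 higher and 4 lower. A difference of 2 with overlap allowed gave 458 higher and 455 lower. The cause of these shifts was not tested where fewer cells or genes do not account for them. The AP-1 median stayed positive in 24 of 24 alternatives, from 1.46 to 3.12. No paired analysis was possible because the labels give 1 group. Read depth is unknown, so values near 1 FPKM cannot be given a counting error.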
